A study of Homo sapiens with 18 samples.

Results

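The genes described here encode the proteins that license replication origins and copy DNA at the replication fork. They were chosen by name in the deposited count table, 39 genes of the 58037 listed, and all 39 were among the 15185 genes with enough counts to be tested. The MCM2 to MCM7 helicase genes were left out by the rule. The cells were LNCaP, an established human prostate cancer cell line that responds to androgen, grown in 9% charcoal-stripped serum and thereby deprived of androgen. Each culture received 1 of 3 siRNA pools with Lipofectamine 2000: a non-targeting control pool, a pool against E2F1 or a pool against E2F2. Each pool was combined with either ethanol vehicle or 0.1 nM R1881, a synthetic androgen, so that the 18 libraries form 6 groups of 3 biological replicates. RNA was harvested 48 h after treatment, and treatment began 42 h after transfection by one label and 48 h by another. All groups therefore share the stripped serum, the transfection and the single cell line, and an untransfected group was not analysed here.

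Origins are licensed when the origin recognition complex (ORC1 to ORC6) binds DNA and, with CDC6 and CDT1, loads the MCM helicase, a step that geminin (GMNN) blocks by binding CDT1. The kinase CDC7 with its activator DBF4, together with CDC45 and the GINS complex, then turns the loaded helicase into a moving fork, where primase and the DNA polymerases copy the strands, the RFC loader places the PCNA clamp, RPA coats single strands, and FEN1 and LIG1 finish Okazaki fragments. E2F1 and E2F2 are transcription factors of the activating E2F class, and genes for DNA replication are among their textbook targets. Androgen drives proliferation in LNCaP cells.

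Libraries held 10930204 to 14819879 counts. Values below are in CPM, counts scaled to a common library size after trimmed mean of M-values (TMM) normalisation, and folds, log2 fold changes with SE and adjusted p-values are from edgeR's quasi-likelihood test with Benjamini-Hochberg adjustment over all 15185 genes, called when the adjusted p was under 0.05. The siRNA targets followed their labels. The log2 fold changes of E2F1 with its pool were -2.94 ± 0.17 under R1881 and -2.45 ± 0.17 with vehicle. For E2F2 with its pool the log2 fold changes were, in the same order, -4.05 ± 0.54 and -4.14 ± 0.63. The E2F2 values rest on few counts, 0 to 5 per E2F2 siRNA library and 21 to 53 per control siRNA library. The E2F2 pool also lowered E2F1, which went from 68.6 to 81.2 CPM with control siRNA under R1881 to 21.5 to 25.5 CPM with E2F2 siRNA, a fitted fall to 32.5%. E2F2 with the E2F1 pool under R1881 was below control in every library without being called (log2 -1.22 ± 0.38, adjusted p = 0.0586). The luminal marker KRT8 was abundant in every library, KLK3 was between 42.4 and 2315 CPM, and PTPRC, TP63, KRT5 and COL1A2 had at most 1 count in any library, whereas VWF reached 45.2 CPM and COL1A1 36.6 CPM. Replicate 3 stood apart, most in cells without androgen: among the control siRNA vehicle libraries the median absolute log2 difference over the 39 genes was 0.0893 between replicates 1 and 2 and 0.654 between replicate 3 and the mean of replicates 1 and 2. This shift followed the GC content of the transcripts (Pearson's r from 0.68 to 0.84 over the 39 genes in the 6 groups, given as a description). In the control siRNA vehicle group CDT1 was highest at 0.97 on the log2 scale. POLE2 was lowest there at -2.97, with only 0.534 CPM in replicate 3. In the other groups ORC4 or ORC5 was lowest. Counts with replicates 1 and 2 alone are therefore given beside the main results, and the part of this shift in any result was not tested beyond them.

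Promoters were taken from RefSeq (GRCh38.p14), which had an entry for 35 of the 39 genes. The windows ran from 250 bases before to 50 bases after the transcription start. The letters TTTCCCGC or TTTGGCGC, as in E2F sites, were in 12 of the 35 windows (34.3%) on either strand, against 3.77% of the windows of all tested genes and 2.31% of all windows. CCAAT, the letters bound by NF-Y, was in 18 (51.4%, against 37% of tested genes), GGGCGG, a GC box, in 25 (71.4% against 69.9%), and TTTGAA, the CHR element of mitotic genes, only in DBF4 (2.86% against 9.31%). The 250 bases before the start are shown for the 3 genes with the smallest p-values after E2F2 silencing under R1881 (FEN1, CDC6, RFC5), for 2 of those with the largest (ORC3, ORC2), and for ORC5, which moved the other way and was chosen after its values were seen. By GENCODE 29 (GRCh38) the FEN1 gene spans chr11:61792637-61797244, CDC6 chr17:40287633-40304657, RFC5 chr12:118013588-118033130 and ORC5 chr7:104126341-104208047, the last on the minus strand. Capitals mark matches to the E2F letters or to CCAAT on either strand.
FEN1 (chr11:61792661-61792910, + strand): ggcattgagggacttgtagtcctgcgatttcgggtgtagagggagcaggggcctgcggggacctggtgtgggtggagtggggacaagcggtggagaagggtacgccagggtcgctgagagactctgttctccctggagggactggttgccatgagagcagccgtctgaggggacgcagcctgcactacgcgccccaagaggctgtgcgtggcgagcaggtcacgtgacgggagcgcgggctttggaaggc
CDC6 (chr17:40287629-40287878, + strand): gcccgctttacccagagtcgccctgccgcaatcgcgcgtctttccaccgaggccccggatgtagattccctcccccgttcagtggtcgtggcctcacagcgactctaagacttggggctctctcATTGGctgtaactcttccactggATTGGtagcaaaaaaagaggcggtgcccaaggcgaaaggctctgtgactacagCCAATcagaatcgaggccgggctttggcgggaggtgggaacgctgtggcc
RFC5 (chr12:118016453-118016702, + strand): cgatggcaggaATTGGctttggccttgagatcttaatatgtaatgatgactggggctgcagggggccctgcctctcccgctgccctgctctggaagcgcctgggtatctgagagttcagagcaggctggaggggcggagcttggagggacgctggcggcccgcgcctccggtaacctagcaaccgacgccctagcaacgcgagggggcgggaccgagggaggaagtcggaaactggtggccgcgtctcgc
ORC3 (chr6:87589885-87590134, + strand): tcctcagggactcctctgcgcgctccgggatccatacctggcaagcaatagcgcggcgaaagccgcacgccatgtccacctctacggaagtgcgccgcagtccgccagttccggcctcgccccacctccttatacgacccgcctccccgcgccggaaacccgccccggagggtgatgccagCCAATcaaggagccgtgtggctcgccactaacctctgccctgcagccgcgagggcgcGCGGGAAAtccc
ORC2 (chr2:200963661-200963910, - strand): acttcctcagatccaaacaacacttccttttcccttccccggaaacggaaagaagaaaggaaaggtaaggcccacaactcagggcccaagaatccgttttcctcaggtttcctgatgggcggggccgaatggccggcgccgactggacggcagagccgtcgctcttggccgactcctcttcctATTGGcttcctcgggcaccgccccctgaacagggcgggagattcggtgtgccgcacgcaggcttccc
ORC5 (chr7:104208014-104208263, - strand): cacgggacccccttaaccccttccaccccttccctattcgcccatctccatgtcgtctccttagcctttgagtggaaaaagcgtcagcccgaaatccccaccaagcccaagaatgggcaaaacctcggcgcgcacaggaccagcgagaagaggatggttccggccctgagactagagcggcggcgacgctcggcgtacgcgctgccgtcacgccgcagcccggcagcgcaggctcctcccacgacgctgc
The 3 promoters of strongly changed genes hold no exact E2F letters in these stretches. By the coordinates above, the FEN1 and RFC5 stretches lie inside the annotated gene spans, and that of CDC6 mostly does. Bases before the annotated gene starts were therefore not searched for FEN1 and RFC5. The bases just after the RefSeq start were found in a GENCODE transcript for 31 of the 35 genes. CDC6 has a match in the 50 bases after its start. Only the exact letters were searched, and near matches such as tttggcgg in the CDC6 stretch were not counted. ORC3, whose RNA was not called in any comparison of the main results, has a match close to its start. With replicates 1 and 2 alone ORC3 was called lower with E2F2 siRNA and vehicle. The 12 genes with the letters and the 23 without were called lower with E2F2 siRNA under R1881 in 10 of 12 and 18 of 23 cases (1 of the latter was higher), with medians of -1.29 and -1.08 on the log2 scale. With vehicle the counts were 10 of 12 and 12 of 23. Of all tested genes, 14.4% were called lower under R1881 and 13.1% with vehicle. Calls among other genes with these letters were not counted. A match describes letters in a window and not a bound site.

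The first comparison asked how the synthetic androgen moved these genes in cells with control siRNA. R1881 raised 30 of the 39 genes and lowered none, where 13.8% of all tested genes were called higher and 27.0% in either direction. The median log2 fold change was 0.79 over the 39 genes and 0.00 over all genes. Of the 39 genes, 9 were called with a rise of at least 2-fold. Of all 15185 tested genes, 1245 were called with a change of at least 2-fold in either direction. The share of all counts held by the 39 genes went from 0.173% ± 0.0091 to 0.260% ± 0.0082 (SD, n = 3). In 32 of the 39 genes every R1881 library lay above every vehicle library, against 18.1% of all genes. In bulk RNA, a change in how many cells are in S phase and a change in these RNAs per cell cannot be told apart.

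**Figure D1:**
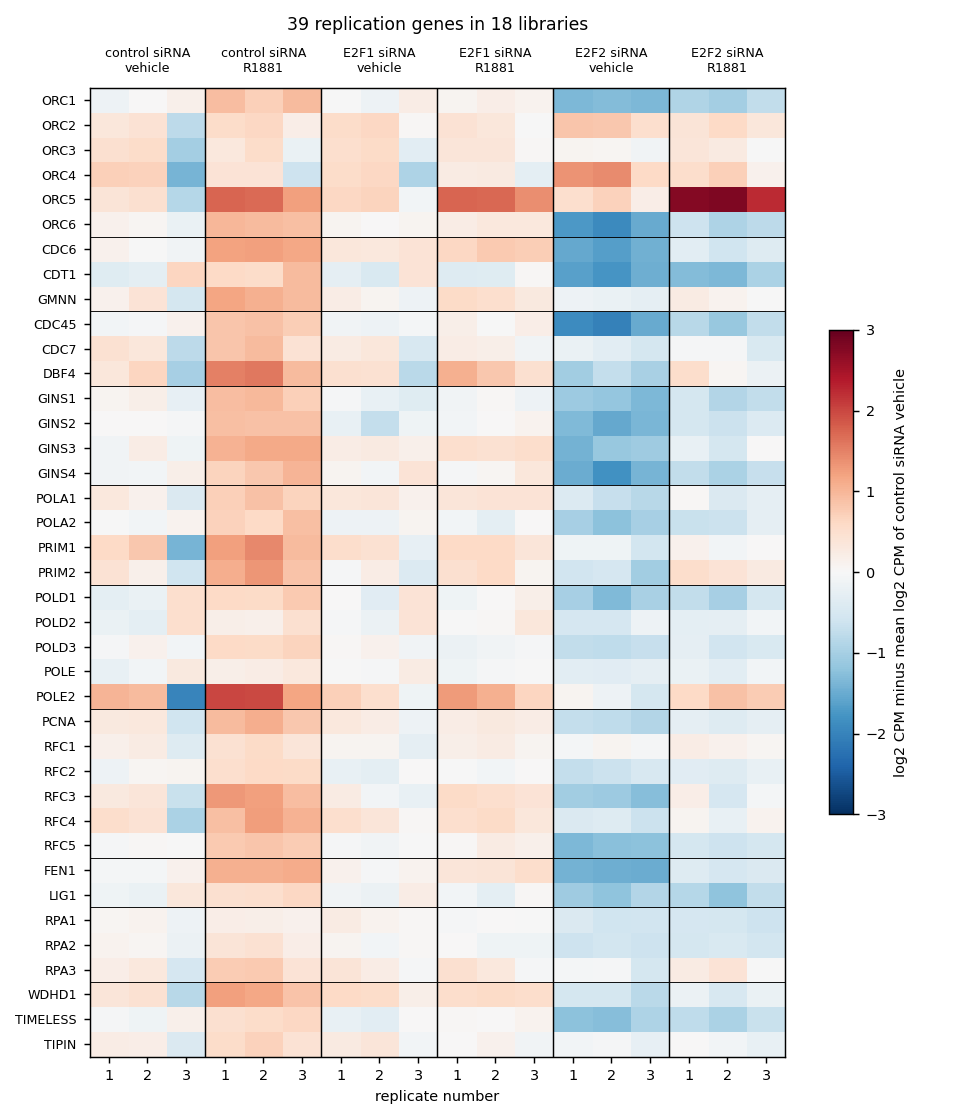
Each cell is the log2 CPM of 1 of the 39 genes (rows, in order of role) in 1 of the 18 libraries (columns, by group and replicate number), minus the mean log2 CPM of that gene in the control siRNA vehicle libraries. Most rows are raised with control siRNA under R1881 and lowered in the E2F2 siRNA groups, ORC5 is highest with E2F2 siRNA under R1881, and replicate 3 of the control siRNA vehicle group differs from replicates 1 and 2.

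Among the licensing genes, CDC6, the ATPase that joins the origin recognition complex to load the helicase, was at 51.0, 46.2 and 43.0 CPM with vehicle and at 107, 110 and 104 CPM with R1881. The groups were far apart, and CDC6 rose 2.29-fold (log2 1.19 ± 0.09, adjusted p = 1.06e-07). Geminin (GMNN) rose as well, from 23.5 ± 7.25 to 47.6 ± 3.91 CPM (2.03-fold, adjusted p = 0.00042). CDT1, the loading partner that geminin inhibits, had overlapping groups, 24.5, 25.8 and 49.4 CPM against 47.9, 45.8 and 61.2 CPM, and was not called (log2 0.63 ± 0.26, adjusted p = 0.0829). Replicate 3 of the vehicle group alone lay among the R1881 values.

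The origin recognition complex was divided: ORC1, ORC5 and ORC6 rose and ORC2, ORC3 and ORC4 were not called. ORC6, a subunit that joins the complex loosely in human cells, was at 20.3, 19.4 and 15.9 CPM with vehicle and 36.6, 35.8 and 34.6 CPM with R1881. No library of one group reached the other, and the rise was 1.92-fold (adjusted p = 1.13e-05). ORC1, the ATPase subunit whose level varies over the cell cycle, rose 1.82-fold, from 19.2 ± 2.01 to 35.0 ± 3.03 CPM (adjusted p = 3.87e-05). ORC3 was at 19.4, 20.7 and 6.87 CPM with vehicle and 17.6, 20.5 and 12.3 CPM with R1881, and ORC4 at 45.7, 44.9 and 10.6 CPM and 37.0, 37.0 and 18.1 CPM. In both genes the groups overlapped and the third library of each group was the lowest. Their log2 fold changes of 0.11 (95% interval -0.57 to 0.78) and -0.13 (-1.13 to 0.87) leave room for changes in either direction.

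Of the firing factors, CDC45, a helicase subunit, rose 1.76-fold from 19.3 ± 1.45 to 34.0 ± 1.62 CPM (adjusted p = 0.000131), and DBF4 rose 2.33-fold (adjusted p = 0.0188), while its kinase partner CDC7 was not called (log2 0.66 ± 0.27, adjusted p = 0.0837). All 4 GINS subunits rose. GINS3 had the smallest p among them, with 9.59, 12.1 and 9.47 CPM in vehicle and 21.4, 22.6 and 22.6 CPM in R1881 libraries (2.13-fold, adjusted p = 1.57e-05). The other GINS genes rose 1.78- to 1.84-fold, and each pair of groups was separate.

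Of the polymerase alpha and primase genes, POLA1, POLA2 and PRIM2 rose 1.64-, 1.66- and 2.06-fold. PRIM1, the catalytic primase subunit, was higher in all R1881 libraries (22.1, 25.5 and 18.1 CPM against 14.1, 16.4 and 3.54 CPM) but was not called (log2 0.95 ± 0.36, adjusted p = 0.0605). Of polymerases delta and epsilon, POLD1, POLD3 and POLE2 rose 1.52-, 1.53- and 2.45-fold, whereas POLE, the catalytic subunit of polymerase epsilon, was not called (log2 0.22 ± 0.12, adjusted p = 0.186). POLD2, the delta subunit that bridges the others, had 185, 172 and 299 CPM with vehicle and 237, 234 and 297 CPM with R1881. Its groups overlapped through the third vehicle library, and the log2 change of 0.23 (95% interval -0.19 to 0.65) was not called (adjusted p = 0.441).

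All 6 clamp and clamp loader genes rose. RFC5, a small loader subunit, was at 27.9, 29.4 and 28.5 CPM with vehicle and 49.5, 50.6 and 48.2 CPM with R1881. These are tight and separate groups, with a 1.73-fold rise (log2 0.79 ± 0.08, adjusted p = 2.14e-06). PCNA, the sliding clamp, rose 1.85-fold from 105 ± 33.8 to 195 ± 18.9 CPM (adjusted p = 0.00169), and RFC1, the large loader subunit, only 1.36-fold (adjusted p = 0.0234). FEN1, the flap nuclease of Okazaki fragment maturation, had the smallest p of the 39, with 61.8, 61.1 and 69.5 CPM in vehicle and 134, 134 and 139 CPM in R1881 libraries. The groups were wide apart, a 2.11-fold rise (log2 1.08 ± 0.08, adjusted p = 6.57e-08), and its partner LIG1 rose 1.43-fold (adjusted p = 0.0254). Of the RPA subunits, RPA2 and RPA3 rose 1.28- and 1.55-fold and RPA1, the large subunit, was not called (log2 0.16 ± 0.08). The fork protection genes WDHD1, TIMELESS and TIPIN rose by 0.98, 0.55 and 0.54 on the log2 scale.

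Leaving out 1 library at a time called 21 to 30 genes, and 20.5% to 30.5% of all genes. The lowest count came without control siRNA R1881 replicate 2, and 21 genes were called in each of the 6 fits. RPA2, RPA3, RFC1, RFC4, DBF4 and TIPIN had their largest p without that same library, POLE2 without R1881 replicate 1, LIG1 without vehicle replicate 2 and POLD1 without vehicle replicate 1, and each lost its call in at least 1 fit. A fit to these 6 libraries alone called 16 genes, all higher, and 12.9% of all genes. With replicate number as a block 37 genes were called higher, adding ORC2, CDT1, CDC7, PRIM1, POLD2, POLE and RPA1, and 42.1% of all genes were called. With replicates 1 and 2 alone 36 were called higher and 1 lower (ORC4), with a median of 0.71, and 47.3% of all genes were called, so both counts rose along with those of all genes.

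**Figure D2:**
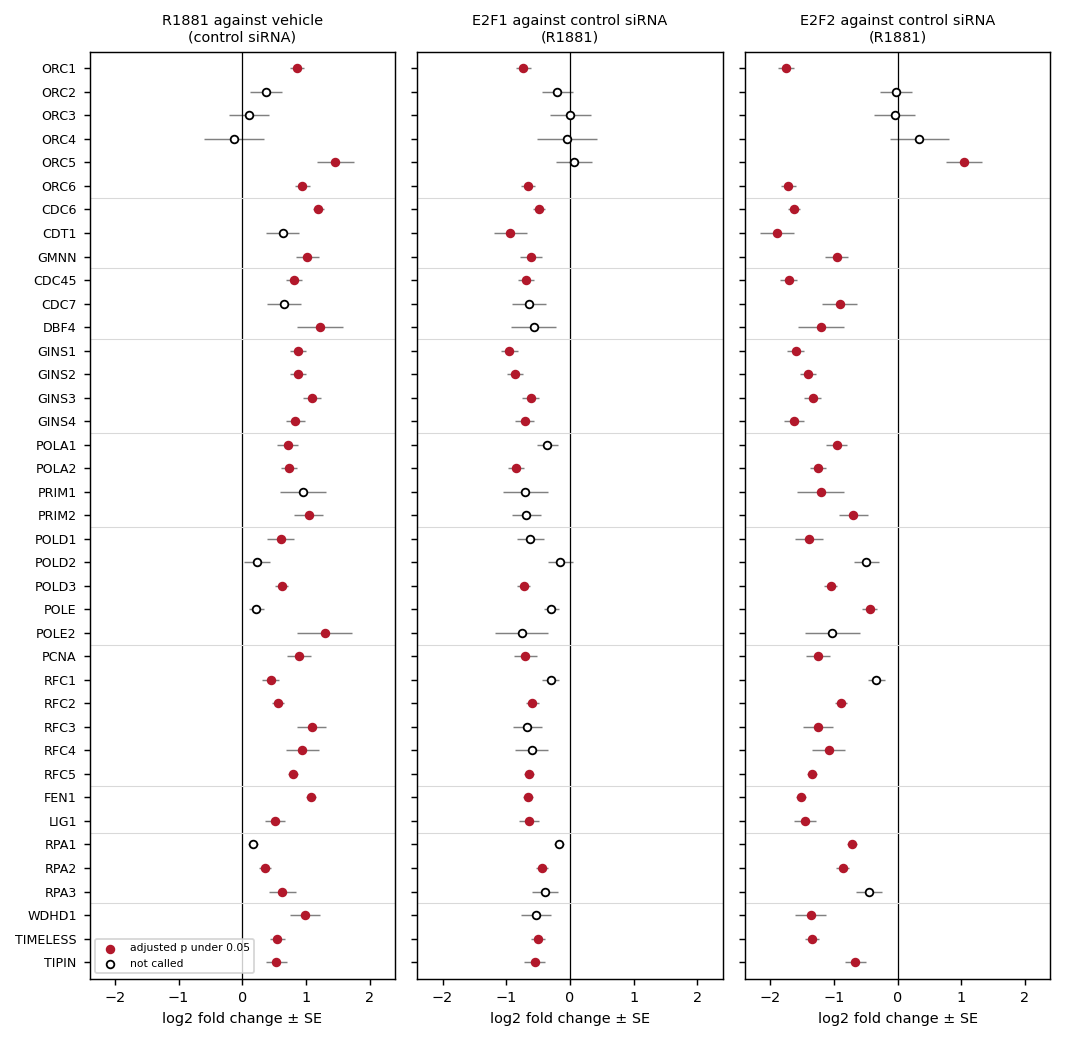
Log2 fold changes (x axis) with SE of the 39 genes (rows, in order of role) for R1881 against vehicle with control siRNA, and for the E2F1 and E2F2 pools against control siRNA under R1881. Filled points passed the test. The androgen effects lie to the right of 0 except for ORC4. The silencing effects lie to the left, with ORC3, ORC4 and ORC5 near 0 or to its right and ORC2 near 0 with the E2F2 pool.

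The second comparison asked what E2F1 silencing did under R1881. E2F1 siRNA lowered 20 of the 39 genes and raised none, where 4.92% of all tested genes were called lower and 9.34% in either direction. The median log2 fold change was -0.61 against -0.01 over all genes. All changes were smaller than 2-fold, with CDT1 and GINS1 near that size. Of all 15185 tested genes, 255 were called with a change of at least 2-fold. This comparison and the previous one share the control siRNA R1881 libraries, so a value that is high in those libraries by chance enters both.

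GINS1, the subunit PSF1, had the largest fall of the 20: from 92.1, 95.5 and 79.9 CPM with control siRNA to 45.2, 49.4 and 43.8 CPM with E2F1 siRNA. The groups did not overlap (log2 -0.95 ± 0.13, adjusted p = 0.000191). GINS2 went from 48.0, 47.2 and 47.4 to 24.3, 26.0 and 27.8 CPM (log2 -0.87 ± 0.12, adjusted p = 0.000317), and GINS3 and GINS4 also fell, by 0.61 and 0.71 on the log2 scale. All GINS subunits were thus lower together in separate groups. FEN1 fell to 82.5, 83.7 and 92.3 CPM and RFC5 to 29.2, 34.0 and 31.8 CPM from the control R1881 values given above. None of these libraries reached its control (log2 -0.65 ± 0.08 for FEN1 and -0.64 ± 0.08 for RFC5, adjusted p = 8.01e-05 and 0.000101). POLD3, an accessory delta subunit, fell from 33.1, 32.6 and 34.7 to 19.2, 20.2 and 21.1 CPM (log2 -0.73 ± 0.10, adjusted p = 0.00023).

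All 3 licensing factors were called lower. CDT1 fell to 24.2, 24.5 and 32 CPM (log2 -0.94 ± 0.26, adjusted p = 0.0322), CDC6 to 76.5 ± 4.66 CPM (log2 -0.48 ± 0.09, adjusted p = 0.00272) and GMNN to 31.2 ± 3.22 CPM (log2 -0.61 ± 0.18, adjusted p = 0.0391). CDC45, POLA2, PCNA, RFC2, LIG1, RPA2, TIMELESS and TIPIN also fell, by 0.45 (RPA2) to 0.85 (POLA2) on the log2 scale, and so did ORC1 and ORC6 (-0.73 and -0.66). The smallest differences of the 39 were in 3 other ORC subunits: ORC5 was at 68.9, 68.0 and 54.1 CPM, ORC4 at 33.2, 33.7 and 22.7 CPM and ORC3 at 18.1, 18.1 and 14.5 CPM with E2F1 siRNA. Their groups overlapped those with control siRNA, with log2 changes of 0.07 (95% interval -0.53 to 0.67), -0.04 (-1.04 to 0.96) and 0.01 (-0.67 to 0.68). The catalytic polymerase genes POLA1, POLD1 and POLE were lower in every library than the controls without being called (log2 -0.36, -0.62 and -0.30). In all, 31 of the 39 genes had groups that did not overlap and were lower, against 16.5% of all genes.

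Leaving out 1 library left 15 to 17 genes called, and 5.62% to 6.92% of all genes. GMNN and TIPIN lost their call in all 6 of these fits, with adjusted p up to 0.160 and 0.164 (without E2F1 siRNA R1881 replicate 3), CDT1 and PCNA in 5 and LIG1 in 4. The replicate block called 27 genes lower, adding RPA3, RFC1, RFC3, PRIM2, POLE, CDC7 and POLD1, and replicates 1 and 2 alone called 36 lower. The shares of all genes called in these fits were 19.9% and 29.5%.

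The third comparison asked the same of E2F2 silencing under R1881. E2F2 siRNA lowered 31 of the 39 genes and raised 1, ORC5, where 14.4% of all tested genes were called lower, 15.9% higher and 30.3% in either direction. The median log2 fold change was -1.21 over the 39 genes and 0.03 over all genes. Of the 39, 23 were called with a change of at least 2-fold, against 1345 of all 15185 tested genes. In 35 genes every E2F2 siRNA library lay below every control library, against 23.4% of all genes. E2F1 RNA was itself at 32.5% of its control level in these libraries, so the part of each E2F gene in these falls cannot be told apart. The counts held by the 39 genes made up 0.140% ± 0.0045 of each library, below the 0.260% of the control R1881 group and also below the 0.173% of the control vehicle group.

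FEN1 fell to 48.9, 45.0 and 47.8 CPM, from 134 to 139 CPM with control siRNA (log2 -1.52 ± 0.08, adjusted p = 5.86e-09). CDC6 fell to 37.2, 30.9 and 35.5 CPM (log2 -1.63 ± 0.09, adjusted p = 1.29e-08) and RFC5 to 19.9, 18.7 and 19.7 CPM (log2 -1.34 ± 0.08, adjusted p = 2.08e-08). In these 3 genes every E2F2 siRNA R1881 library lay below every control library of either treatment. ORC6 fell to 12.0, 9.79 and 10.7 CPM (log2 -1.72 ± 0.12, adjusted p = 5.62e-08). ORC1 went from 36.3, 31.5 and 37.1 to 10.3, 9.45 and 11.4 CPM (log2 -1.75 ± 0.12, adjusted p = 5.95e-08). Both subunits were near 30% of their control level (30.4% for ORC6 and 29.7% for ORC1), while ORC2, ORC3 and ORC4 were again not called.

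CDT1 had the largest fall of the 39, to 12.8, 12.5 and 16.3 CPM, or 26.9% of control (log2 -1.90 ± 0.27, adjusted p = 6.78e-05). CDC45 fell to 30.5% of control, the 4 GINS genes to between 32.4% (GINS4) and 39.7% (GINS3), and LIG1 to 36.5%. All 4 polymerase alpha and primase genes fell, from -0.69 (PRIM2) to -1.25 (POLA2) on the log2 scale. Of polymerases delta and epsilon, POLD1 (-1.39), POLD3 (-1.05) and POLE (-0.44) fell, while POLD2 (-0.49 ± 0.20) and POLE2 (-1.02 ± 0.43) were not called. PCNA and 4 of 5 loader genes fell, PCNA to 81.8 ± 4.43 CPM (log2 -1.25 ± 0.18), with RFC1 uncalled at -0.33 ± 0.14. RPA1 and RPA2 fell less, to 61.1% and 55.0% of control, and RPA3 was not called (-0.45 ± 0.21). WDHD1, a fork scaffold protein, and TIMELESS fell to 38.8% and 39.5%, and TIPIN, the partner of TIMELESS, to 63.2%.

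Leaving out 1 library left 28 to 31 genes called, and 23.4% to 25.5% of all genes. CDC7, PRIM1, PRIM2, DBF4, POLE and ORC5 lost their call in at least 1 fit. With replicates 1 and 2 alone, 35 were called lower and 2 higher (ORC4 and ORC5), with 51.4% of all genes called.

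**Figure D3:**
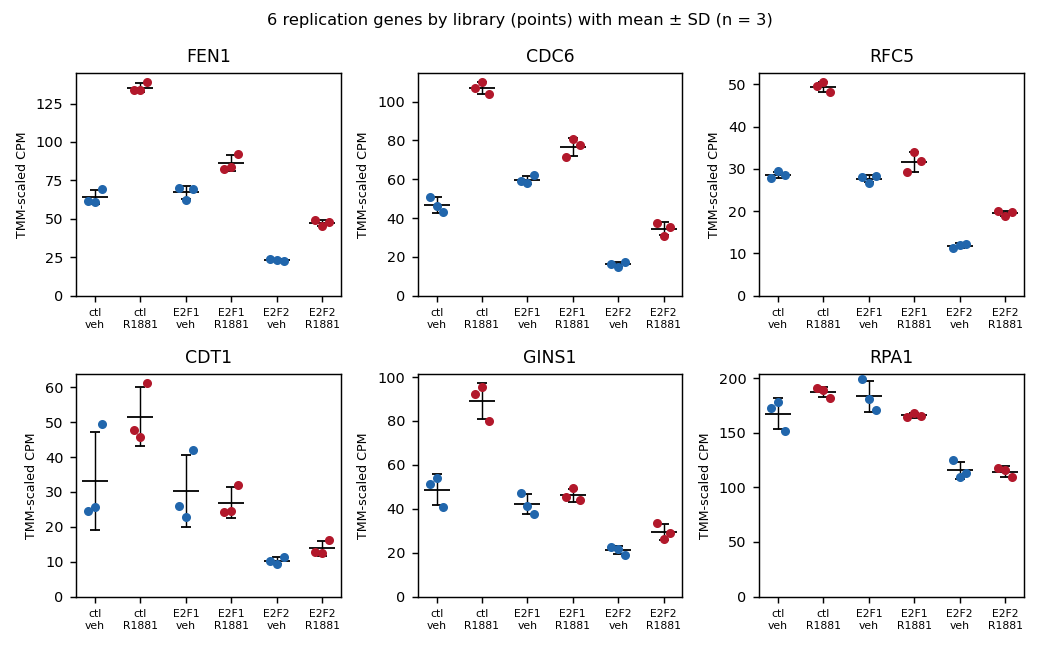
TMM-scaled CPM (y axis, from 0) of FEN1, CDC6, RFC5, CDT1, GINS1 and RPA1 in each library (points) with mean and SD (n = 3) for the 6 groups, where ctl is control siRNA and veh is vehicle. The first 3 genes separate the groups with little spread, CDT1 has a high vehicle replicate 3 with control and E2F1 siRNA, and RPA1 is called lower with E2F2 siRNA (log2 -0.71 under R1881 and -0.53 with vehicle).

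The ORC subunits did not move together. ORC5, a subunit that binds ATP, was at 26.6, 28.4 and 11.3 CPM with control siRNA and vehicle, 68.6, 65.9 and 47.6 CPM with control siRNA and R1881, and 137, 141 and 96.2 CPM with E2F2 siRNA and R1881. With E2F2 siRNA and vehicle it was at 28.9, 32.9 and 23.3 CPM. ORC5 therefore rose with R1881 in cells with control siRNA (2.75-fold, adjusted p = 0.00137), with E2F1 siRNA (2.30-fold, adjusted p = 0.00671) and with E2F2 siRNA (4.39-fold, adjusted p = 5.09e-05), and it was the only one of the 39 genes that E2F2 siRNA raised under R1881 (2.05-fold, adjusted p = 0.011). That last call rested in part on 1 library: without control siRNA R1881 replicate 3 the adjusted p was 0.055 at a log2 change of 0.89, and with replicates 1 and 2 alone it was 3.03e-14 at 1.05. The test of whether its R1881 response was larger with E2F2 than with control siRNA gave a log2 difference of 0.68 ± 0.41 (adjusted p = 0.652), but with replicates 1 and 2 alone it was called (0.89, adjusted p = 8.77e-07). ORC2 was at 44.3, 47.5 and 20.5 CPM with control siRNA and vehicle, 62.8, 61.4 and 49.9 CPM with E2F2 siRNA and vehicle, 51.4, 53.7 and 40.0 CPM with control siRNA and R1881, and 46.1, 52.7 and 44.2 CPM with E2F2 siRNA and R1881. Its R1881 groups overlapped fully. With vehicle all 3 E2F2 siRNA libraries were above the controls, at a log2 difference of 0.63 ± 0.25 that was not called (adjusted p = 0.0685). ORC4 showed the same order with vehicle, 70.6, 75.2 and 42.3 CPM against 45.7, 44.9 and 10.6 CPM, with overlap (log2 0.89 ± 0.47, adjusted p = 0.174). With the replicate block both passed (adjusted p = 0.00113 for ORC2 and 0.00165 for ORC4), as ORC5 did with vehicle (0.0267). ORC3 was at 14.9, 14.7 and 13.1 CPM with E2F2 siRNA and vehicle and 18.1, 17.0 and 13.8 CPM with E2F2 siRNA and R1881. These values lay within the range of its controls. With vehicle this held only through control replicate 3, at 6.87 CPM. With replicates 1 and 2 alone ORC3 was called lower with E2F2 siRNA and vehicle.

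**Figure D4:**
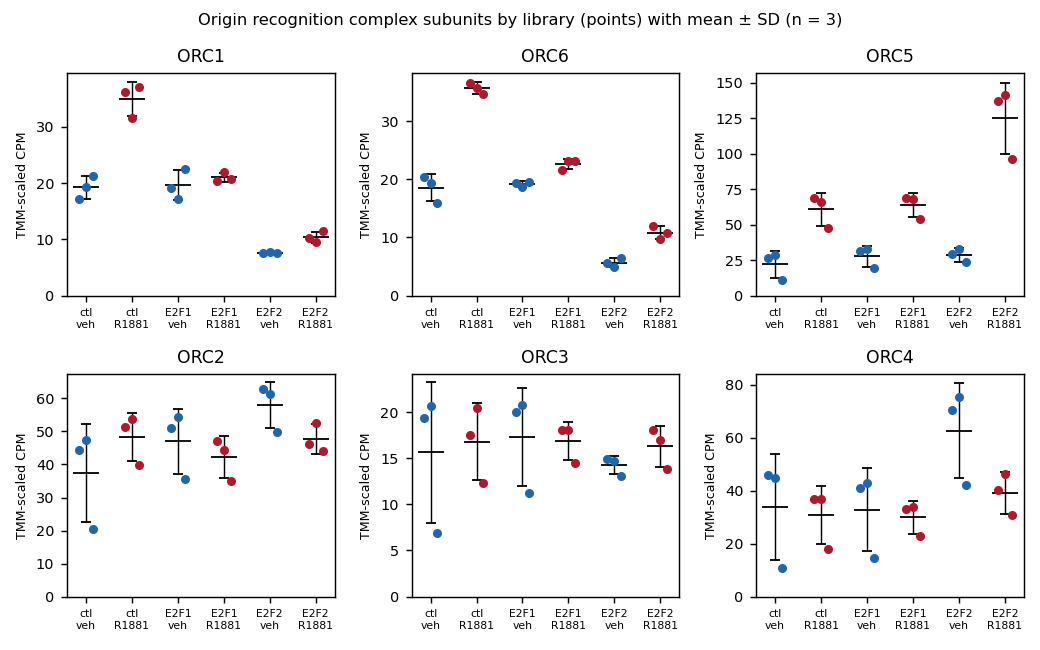
TMM-scaled CPM (y axis, from 0) of the 6 origin recognition complex subunits in each library (points) with mean and SD (n = 3) for the 6 groups, where ctl is control siRNA and veh is vehicle. ORC1 and ORC6 are lowest with E2F2 siRNA, ORC5 is highest with E2F2 siRNA under R1881 at 96.2 to 141 CPM, and the third libraries of ORC2 to ORC5 are low in most groups.

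The vehicle comparisons asked what the 2 pools did without androgen, and here they parted. With E2F1 siRNA 1 of the 39 genes was called, where 5.28% of all tested genes were called and 2.36% were called higher: CDC6 was higher, at 59.3, 58.0 and 62.1 CPM against 51.0, 46.2 and 43.0 CPM (1.28-fold, log2 0.35 ± 0.09, adjusted p = 0.0338). The groups did not overlap, but the call was lost in 5 of the 6 fits with 1 library left out, the exception being the fit without control siRNA vehicle replicate 1. The median log2 change was 0.01, and 24 of the 39 estimates were above 0. The replicate block added GINS2 as lower (log2 -0.33 in the fit without a block, adjusted p = 0.0457 with it), with 12.7% of all genes called. Replicates 1 and 2 alone called CDC6 higher and GINS1, GINS2 and TIMELESS lower, with a median of -0.04 and 18.8% of all genes called. With E2F2 siRNA and vehicle 25 of the 39 genes fell and none rose, where 13.1% of all tested genes were called lower and 27.3% in either direction. The median was -0.74 against 0.02 over all genes.

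All 25 were also called lower with this pool under R1881. FEN1 was at 24.0, 23.1 and 22.7 CPM with E2F2 siRNA and vehicle, against 61.8, 61.1 and 69.5 CPM in its controls (log2 -1.46 ± 0.08, adjusted p = 8.88e-09). CDC45 had the largest fall, to 5.18, 4.72 and 6.72 CPM from 18.3, 18.7 and 21.0 CPM (log2 -1.80 ± 0.14, adjusted p = 1.41e-07). ORC6 fell to 5.55, 4.91 and 6.46 CPM, 30.5% of control, and CDC6 to 16.1, 14.9 and 17.1 CPM, 34.3% of control. In these genes no silenced library came near a control. GMNN, CDC7, DBF4, PRIM1, RFC4 and TIPIN were called lower under R1881 and not with vehicle, with vehicle log2 changes from -1.05 (DBF4) to -0.15 (TIPIN); the difference between the treatments was not called for any of them, although with the replicate block it was for GMNN (log2 -0.72, adjusted p = 0.0294). PRIM2, POLE and WDHD1 lost their vehicle calls in at least 1 fit with a library left out. Without control siRNA vehicle replicate 3 the count was 30, with 26.7% of all genes called. With the replicate block it was 31, with 45.3% of all genes called. The block added CDC7, DBF4 and POLD2 as lower and ORC2, ORC4 and ORC5 as higher. Replicates 1 and 2 alone called 36 lower and 2 higher (ORC2 and ORC4), with 45.7% of all genes called. E2F1 RNA was at 33.7% of control in the E2F2 siRNA vehicle libraries (adjusted p = 3.71e-06).

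**Figure D5:**
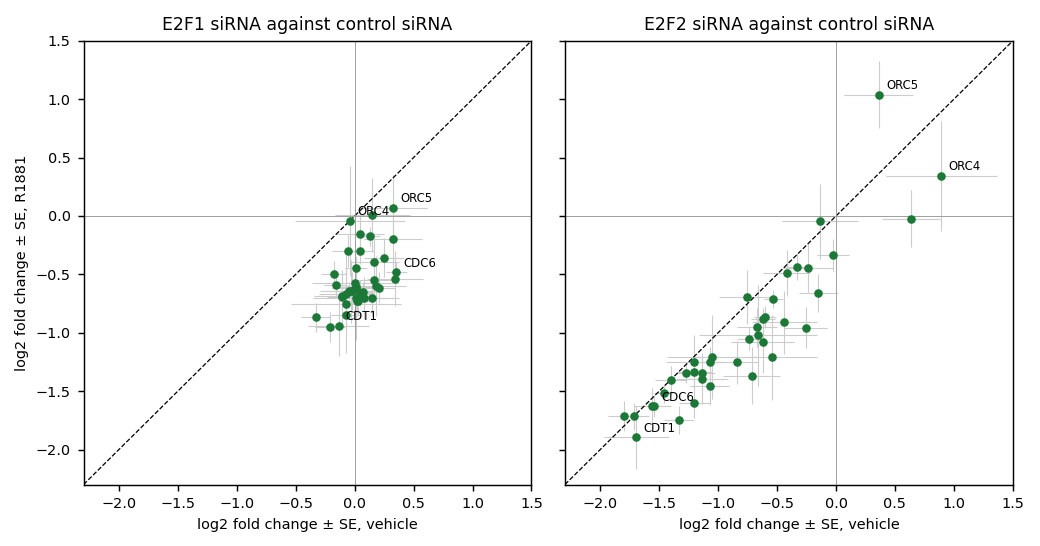
Log2 fold changes with SE of the 39 genes (points) against control siRNA, with vehicle on the x axis and with R1881 on the y axis, for the E2F1 pool (left) and the E2F2 pool (right); the dashed line marks equal change. With E2F1 siRNA the points lie near 0 on the vehicle axis and all fall below the line, and with E2F2 siRNA most genes are lowered on both axes.

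Set directly against each other, the pools differed in the same sense in both treatments. With vehicle 26 of the 39 genes were lower with E2F2 than with E2F1 siRNA and none was higher, where 14.4% of all tested genes were called lower and 30.6% in either direction (median -0.92). CDC6 differed most, at 14.9 to 17.1 CPM against 58.0 to 62.1 CPM (log2 -1.90 ± 0.10, adjusted p = 2.15e-09). Under R1881 22 were lower and 1 was higher, ORC5, where 11.0% of all tested genes were called lower, 13.1% higher and 24.0% in either direction (median -0.54). CDC6 again led, with 30.9 to 37.2 CPM against 71.5 to 80.7 CPM (log2 -1.15 ± 0.09, adjusted p = 4.33e-07), followed by ORC6 (-1.06 ± 0.12), ORC1 and CDC45 (both -1.02). ORC5 was 1.96-fold higher with the E2F2 pool (adjusted p = 0.0203), a call lost in 4 of the 6 fits with a library left out (adjusted p up to 0.0871, without E2F1 siRNA R1881 replicate 3). E2F1 RNA itself was higher with the E2F2 than with the E2F1 pool, by 1.32 ± 0.17 on the log2 scale under R1881 and 0.88 ± 0.17 with vehicle. Leaving out 1 library left 14 to 20 genes called under R1881, the fewest without E2F2 siRNA R1881 replicate 2, and 23 to 26 with vehicle. The shares of all genes called were 17.1% to 18.9% under R1881 and 22.7% to 28.1% with vehicle. The replicate block called ORC4 higher with vehicle (log2 1.01, adjusted p = 0.00162) beside 31 genes lower, with 45.5% of all genes called. Replicates 1 and 2 alone called 29 lower and 2 higher (ORC4 and ORC5) under R1881 and 35 lower and 2 higher (ORC2 and ORC4) with vehicle, with 44.7% and 50.4% of all genes called.

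Within the silenced cells the response to R1881 was measured again. With E2F1 siRNA 3 of the 39 genes rose and none fell, where 10.1% of all tested genes were called higher and 19.8% in either direction: ORC5, FEN1 (67.2 ± 4.17 to 86.1 ± 5.33 CPM, 1.28-fold, adjusted p = 0.00372) and CDC6 (59.8 ± 2.10 to 76.5 ± 4.66 CPM, 1.28-fold, adjusted p = 0.0101). The median was 0.11, and CDC6 lost its call without E2F1 siRNA R1881 replicate 2 (adjusted p = 0.0533). The replicate block called 9, adding DBF4, GINS2, TIMELESS, RFC3, GMNN and PRIM2, with 30.7% of all genes called. Replicates 1 and 2 alone called 11 higher and 3 lower (ORC2, ORC4 and RPA1), with 38.3% of all genes called. With E2F2 siRNA 17 genes rose and none fell, where 11.8% of all tested genes were called higher and 22.8% in either direction, with a median of 0.43. FEN1 rose 2.03-fold from 23.3 ± 0.707 to 47.2 ± 2.02 CPM (adjusted p = 1.54e-07) and CDC6 2.15-fold from 16.0 ± 1.12 to 34.6 ± 3.23 CPM (adjusted p = 3.71e-07). All 17 had also risen with control siRNA, and they included the 4 GINS genes, CDC45, POLA2, PRIM2, POLD3, RFC2, RFC3, RFC5 and TIMELESS. The R1881 levels with E2F2 siRNA nevertheless stayed below the vehicle levels with control siRNA for FEN1, CDC6 and RFC5 in every library. Leaving out 1 library called 13 to 16, and 17.5% to 20.7% of all genes. ORC1, RFC2, POLD3, TIMELESS and GINS1 lost their call in at least 1 fit. ORC4 was called lower in 3 other fits. With the replicate block its log2 change was -0.65 (adjusted p = 0.0307), beside 22 genes higher and 36.2% of all genes called. In the fit to the compared groups only it was -0.68 (adjusted p = 0.0366), beside 20 higher and 30.9% of all genes called. The third fit was that with replicates 1 and 2 alone, where ORC2 was lower too and 26 were higher, with 45.5% of all genes called.

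The differences in R1881 response were tested directly. Between E2F1 and control siRNA all 39 estimates were negative, with a median of -0.62 against -0.01 over all genes, and 5 genes were called, where 0.685% of all tested genes were called in either direction and 0.310% lower. These were CDC6 (log2 difference -0.84 ± 0.13, adjusted p = 0.00647), FEN1 (-0.72 ± 0.11, adjusted p = 0.00647), POLD3 (-0.75 ± 0.14, adjusted p = 0.0222), RFC5 (-0.59 ± 0.11, adjusted p = 0.0235) and ORC1 (-0.76 ± 0.16, adjusted p = 0.0484). The shift of all estimates to 1 side uses the same control libraries for every gene and is not 39 separate results. Between E2F2 and control siRNA no gene of the 39 was called by edgeR or DESeq2, where 0.889% of all tested genes were called, 5 had an unadjusted p under 0.05, and the median was -0.21. For FEN1 the difference was -0.06 (95% interval -0.30 to 0.19) and for CDC6 -0.09 (-0.37 to 0.19). The contrast between the 2 pools, added after the data had been seen, called 4 genes, all with a larger response with E2F2 siRNA, where 1.65% of all tested genes were called and 0.784% with a larger response: CDC6 (0.75 ± 0.13, adjusted p = 0.00701), FEN1 (0.66 ± 0.11, adjusted p = 0.00534), ORC6 (0.70 ± 0.17, adjusted p = 0.0484) and RFC5 (0.53 ± 0.12, adjusted p = 0.0324). In both tests CDC6 and FEN1 were called in each of the 12 fits with 1 library left out. For E2F1 against control siRNA ORC1 lost its call in 10 of the 12, POLD3 in 9 and RFC5 in 7, with adjusted p up to 0.135 and 0.0877 (without E2F1 siRNA R1881 replicate 1) and 0.103 (without control siRNA R1881 replicate 2). For E2F2 against E2F1 siRNA ORC6 lost it in 11 and RFC5 in 10, with adjusted p up to 0.151 and 0.109 (without E2F2 siRNA vehicle replicates 2 and 1). FEN1 lost its call for E2F1 against control siRNA in the fit to the compared groups only and with no filter on low counts (adjusted p = 0.0653 and 0.067). For E2F1 against control siRNA the replicate block called 21 of the 39 and DESeq2 12, all lower, with 4.58% and 2.73% of all genes called. Replicates 1 and 2 alone called 32, all lower, for E2F1 against control siRNA, 8 lower and 1 higher for E2F2 against control siRNA, and 12 higher and 1 lower for E2F2 against E2F1 siRNA, with 12.1%, 11.6% and 10.8% of all genes called.

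Levels were compared between genes only per kilobase of exon. The length used was that of all annotated exons of a gene together, which can exceed that of a single transcript. The libraries were exome-captured, and differences in capture between genes were not corrected for. With control siRNA and R1881, PCNA was highest at 132 ± 12.8 CPM per kb, then POLD2 (69.4 ± 9.62), FEN1 (54.6 ± 1.23) and RPA1 (34.1 ± 0.881), and POLE2 was lowest at 2.43 ± 0.709. PCNA, POLD2 and FEN1 are separated by more than their SDs, while ORC3, GINS3 and ORC4 (4.55 ± 1.13, 4.35 ± 0.129 and 3.44 ± 1.22) are not. Exons of 17 of the 39 genes overlap another annotated gene, most for POLA2 (35.1% of its exon length), and 7 genes (DBF4, POLD2, PCNA, RFC3, RFC5, FEN1 and RPA2) have named pseudogene copies, so reads may have been shared there. ORC5 has neither.

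Other genes of replication, from a list of 24 of which 23 were tested, gave these counts. With R1881 and control siRNA 12 of the 23 rose and 1 fell, where 13.8% of all tested genes were called higher and 13.2% lower. With E2F1 siRNA under R1881 8 fell, 1 rose and 14 were not called. Of all tested genes, 4.92% were called lower there and 4.42% higher. With E2F2 siRNA 14 fell and 1 rose under R1881 and 10 fell with vehicle. Of all tested genes, 14.4% were called lower and 15.9% higher under R1881, and 13.1% lower with vehicle. None was called with E2F1 siRNA and vehicle, where 5.28% of all tested genes were called. MCM10, which helps activate the helicase, rose with R1881 (log2 0.89 ± 0.10) and fell with E2F1 siRNA (-1.07 ± 0.10) and E2F2 siRNA (-1.73 ± 0.10) under R1881. CLSPN, the checkpoint adaptor claspin, and TICRR, an origin firing factor, rose by 0.82 and 0.93 and fell with E2F2 siRNA under R1881 by 1.64 and 1.56. RNASEH2A and PIF1 fell with E2F1 siRNA under R1881 by 0.89 and 1.01. The gene that went the other way each time was POLD4, the smallest polymerase delta subunit, which fell with R1881 (-0.60 ± 0.12, adjusted p = 0.00103) and rose with E2F1 (0.40 ± 0.12, adjusted p = 0.0403) and E2F2 siRNA (0.80 ± 0.12, adjusted p = 7.5e-05) under R1881. MCM2 to MCM7 all rose with R1881 (0.57 to 0.82) and all fell under R1881 with E2F1 (-0.96 to -0.51) and E2F2 siRNA (-1.76 to -0.81).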

How the data were processed

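RNA of 18 LNCaP cultures, labelled as 3 biological replicates in each of 6 groups, was sequenced after exome capture of total-RNA libraries. The authors deposited 1 table of whole-number counts per gene. CASAVA 1.8.2, TopHat2 2.0.13, Picard 1.97, featureCounts of Subread 1.6.4 and the GRCh38 genome are listed in the submitters' processing notes. The strand setting, the treatment of multi-mapping reads and the annotation release are not given in the sources used here. Groups were taken from the sample labels.

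Genes were kept by filterByExpr (minimum count 10, minimum total 15), scaled by TMM and fitted with edgeR 4.0.16 (R 4.3.3, limma 3.58.1) as 6 group means over all 18 libraries. Comparisons were contrasts of that fit with Benjamini-Hochberg adjustment over 15185 genes, called at 0.05. SE is the size of the log2 fold change over the root of F. The fit was also run on simulated counts with the same dispersion for every gene and no replicate effect. That check does not cover the shift of replicate 3. Alternatives were RLE scaling, no filter, DESeq2 1.42.0, a fit to the compared groups only, a replicate block, replicates 1 and 2 only, and leaving out each library. Same-numbered libraries deviated together, every pair correlating over 0.1, in 8 of 12 comparisons; the exceptions were E2F2 against control and against E2F1 siRNA under R1881, and both tests of a difference in R1881 response with E2F2 siRNA. Gene models came from GENCODE 29 and promoters from RefSeq.

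The members and lists were chosen with earlier results of these data known. Values per library were given for the 5 smallest and 3 largest p-values in the R1881 response with control siRNA and in both silencing effects under R1881, and for genes that went against most. Of the other replication genes, the 3 with the smallest p-values per comparison could be named. POLD4 and ORC5 were singled out after their values were seen.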

Additional observations from a re-analysis of the deposited data

Results flagged for a closer look

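Of the 39 genes, 6 had a response to R1881 that differed between siRNA pools by edgeR's test of the difference itself. The response was smaller with E2F1 than with control siRNA for CDC6 (log2 difference -0.838), ORC1 (-0.756), POLD3 (-0.748), FEN1 (-0.721) and RFC5 (-0.593). It was larger with E2F2 than with E2F1 siRNA for CDC6 (0.749), ORC6 (0.701), FEN1 (0.664) and RFC5 (0.525). That contrast was chosen after seeing the data. Of all tested genes, 0.685% and 1.65% were called in the 2 tests. Only CDC6 and FEN1 kept their calls in every fit with 1 library left out. FEN1 lost its call for E2F1 against control siRNA in the fit to the compared groups only and with no filter on low counts.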

How the results depend on the processing

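No gene called in the report changed sign under an alternative. With E2F1 siRNA and vehicle, however, replicates 1 and 2 alone turned 1 higher and 0 lower into 1 higher and 3 lower. Counts of the 39 genes called stayed within 1.5 times the value in the report under RLE scaling for all 12 comparisons. With no filter on low counts E2F1 siRNA with vehicle called 0 (2 had an unadjusted p under 0.05 in the filtered fit, and DESeq2 called 1), R1881 with E2F1 siRNA 1, and the difference in response 1 for E2F1 against control and 1 for E2F2 against E2F1 siRNA. Of all genes in these unfiltered fits, 1.57%, 8.36%, 0.0746% and 0.394% were called, in the order given. Fitted to the compared groups only, R1881 with control siRNA called 16, E2F1 siRNA with vehicle 0, and the same 2 differences 1 and 2. DESeq2 called 12 for the first of these differences. The fits to the compared groups called 12.9%, 0.119%, 0.142% and 1.83% of all genes, in the order given. With the replicate block the counts were 2 for E2F1 siRNA with vehicle and 9 for R1881 with E2F1 siRNA. In the differences in response they were 21 for E2F1 against control, 1 for E2F2 against control and 8 for E2F2 against E2F1 siRNA. Of all genes, 12.7%, 30.7%, 4.58%, 4.33% and 4.82% were called, in that order. The block ended no call, and 11 of 18 libraries correlated best with their own number. With replicates 1 and 2 only the counts were 36 for E2F1 siRNA under R1881, 4 with vehicle, 38 for E2F2 siRNA with vehicle, 14 and 28 for R1881 with E2F1 and E2F2 siRNA, and 32, 9 and 13 for the 3 differences. Leaving out 1 library gave 21 to 30 for R1881 with control siRNA, 15 to 17 and 28 to 31 for E2F1 and E2F2 siRNA under R1881, 0 to 1 and 22 to 30 with vehicle, 14 to 20 and 23 to 26 for E2F2 against E2F1 siRNA under R1881 and vehicle, 2 to 4 and 13 to 16 for R1881 with E2F1 and E2F2 siRNA, and 2 to 8, 0 to 0 and 2 to 4 for the differences. Shares of all genes called in these fits follow in the same order. They were 20.5% to 30.5%, 5.62% to 6.92%, 23.4% to 25.5%, 2.87% to 6.65% and 19.1% to 27.2%. Next came 17.1% to 18.9%, 22.7% to 28.1%, 15.0% to 17.5% and 17.5% to 20.7%. For the 3 differences they were 0.187% to 1.62%, 0.342% to 1.34% and 0.831% to 1.28%. The cause of the shifts in counts between fits was not tested.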
